A study of Homo sapiens with 12 samples.

Results

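The genes described here are 9 targets of the transcription factor p53, taken by symbol from the count table of 58735 genes: CDKN1A and GADD45A, which act on the cell cycle, MDM2, the feedback inhibitor of p53, BBC3, BAX and FAS, which promote apoptosis, ZMAT3, SESN1 and RRM2B. All 9 were found and all 9 passed the filter on low counts (at least 10 reads in at least 3 RNA-seq libraries), as did 20552 genes in all. They were followed in human embryonic kidney 293T cells that carry a doxycycline-inducible form of 4EBP1, named 4EBP1-4A, whose phosphorylation sites are changed to alanine so that it stays bound to the cap-binding factor eIF4E. RNA-seq of total RNA and Ribo-seq, which counts the mRNA fragments that ribosomes protect, were available for cells given DMSO and for cells given doxycycline, with 3 libraries per treatment and assay and 12 in all.

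Every library came from the same 293T population, which had been transduced with a lentivirus (LT3REVIR backbone) and sorted for GFP, so the DMSO cells carry the construct too and the transduced cells are not 1 clone. Doxycycline was given at 2 mg/mL as the labels state it, for 12 h according to the labels and the methods, while other passages of the sources give other times. All cells received cycloheximide, which arrests translating ribosomes, shortly before harvest. The study calls the replicates biological, but the labels do not say whether they came from separate cultures, and if they did not, the p-values measure only a technical spread. The label 293T implies the large T antigen of SV40, which binds p53, and the parental line also carries adenovirus E1 genes; expression of these viral genes was not analysed here.

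p53 is a tetrameric DNA-binding protein that is kept low by the ubiquitin ligase MDM2 and accumulates after DNA damage, ribosomal stress or nutrient stress. It then activates genes for cell-cycle arrest, apoptosis, DNA repair and metabolism, among them MDM2 itself. In cells with large T antigen p53 is bound in a stable complex, and its ability to activate targets is known to be impaired. Several of these targets are also transcribed without p53.

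The tetramer recognises a consensus of 20 bases made of a pair of adjoining decamers, each with a core that begins with C and ends with G. Protein-coding genes of GENCODE release 44 (GRCh38) were searched for the consensus within 5000 bases on either side of the gene start. Up to 2 bases off were allowed, but never at the C and G of the cores, and no bases between the decamers. The consensus is its own reverse complement, so both strands were covered. A match was found near 1517 of 20046 genes (7.57%) and near 6 of the 9 targets. The matches of CDKN1A, MDM2, BAX, GADD45A and ZMAT3 are shown here because they show how the targets differ in the letters that p53 reads. That of RRM2B is not shown. The FAS match listed last is not among the 6 and comes from another window, described below. The core of each decamer is in capitals and the sequence is written on the strand of the gene.
CDKN1A, chr6:36676449-36676468: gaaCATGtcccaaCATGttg
MDM2, chr12:68808923-68808942: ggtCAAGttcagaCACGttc
BAX, chr19:48955213-48955232: gggCAGGcccgggCTTGtcg
GADD45A, chr1:67686775-67686794: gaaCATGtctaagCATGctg
ZMAT3, chr3:179070188-179070207: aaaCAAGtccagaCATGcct
FAS, chr10:88991309-88991328: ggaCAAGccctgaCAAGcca

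The ZMAT3 match has 0 bases off and lies in an intron, centred 2018 bases after the gene start. That of GADD45A has 1 base off and lies in an intron, 1583 bases after the start, and that of MDM2 has 2 bases off and lies in an intron, 755 bases after the start. The CDKN1A and BAX matches have 2 bases off and overlap annotated exons; the CDKN1A match is centred at position -2256 relative to the start of the canonical transcript, the place of the textbook response element of this gene. RRM2B has a match with 1 base off in an intron, 2112 bases after its start. The FAS match, with 2 bases off and in an exon, appeared only around the start of the canonical transcript, a window chosen after seeing the data, where 7 of the 9 targets and 7.65% of genes had a match. BBC3 and SESN1 had no match with at most 2 bases off in either window under this rule. Sites with a changed core C or G, or with bases between the decamers, were not counted, so such sites may be present. With at most 1 base off, 3 of the 9 targets and 1.1% of genes had a match.

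Reads on genes ranged from 51519700 to 57824136 in the RNA-seq libraries with DMSO and from 21687906 to 47862104 with doxycycline, the lowest in doxycycline replicate 3. In that library 5.94% of all counts in the table lay on genes and 88.4% in the row for alignments that are not unique. The other doxycycline libraries differed from DMSO the same way. They had 19.7% and 22.9% of counts on genes against 25.2% to 30.8%, and 65.4% and 69.9% in that row against 54.9% to 62.3%. Whether that row counts reads or alignments is not given in the sources used here, so these percentages may not be shares of reads. Mitochondrial genes took 5.76% to 13.6% of the reads on genes with doxycycline and 14.3% to 15.8% with DMSO. The part of these differences in the results, those without doxycycline replicate 3 included, was not tested. EIF4EBP1, the gene of the induced protein, was at 161 ± 7.60 CPM with DMSO and 269.5 ± 10.8 CPM with doxycycline (SD, n = 3), above every DMSO library in each doxycycline library. CPM here is a read count scaled to library size, by the reads on genes times the TMM factor of edgeR. All 9 markers of the 293T line were above 1 CPM, and their sum ranged from 1532 to 1621 CPM with DMSO and from 1690 to 1864 CPM with doxycycline. The sum over 10 markers of other cell types ranged from 14.9 to 17.5 and from 17.3 to 31.3 CPM, mostly from the collagen gene COL1A1, with KRT5 and KRT14 at 0; its part in the results was not tested.

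The 9 targets were all expressed in DMSO-treated cells. Per kilobase of exon, MDM2 was highest at 39.7 ± 0.401 CPM per kb (SD, n = 3), above 96.1% of the genes tested that have a length. BAX (22.2 ± 1.63) and CDKN1A (20.9 ± 1.01) followed, and their DMSO libraries overlapped, as did those of GADD45A (11.1 ± 1.15) and RRM2B (9.98 ± 0.658). SESN1 (7.85 ± 0.355), BBC3 (6.23 ± 0.304), ZMAT3 (4.49 ± 0.201) and FAS (0.309 ± 0.0212) came next, all in CPM per kb and each below the one before in every DMSO library. The levels depend on the length used. With the longest coding transcript of each gene in place of all exons, MDM2 (43.97) and BAX (42.3 CPM per kb) differed by less than the SD of BAX (3.10), FAS was still the lowest at 0.55 CPM per kb, and BBC3 (10.7) and SESN1 (10.1) changed places. With the transcript that has the longest coding sequence, a choice made after seeing the data, the length of MDM2 went from 7490 to 1748 bases and that of FAS from 16484 to 1936. MDM2 was then at 188 and FAS at 4.68 CPM per kb, still the highest and the lowest, while RRM2B (33.4) lay above CDKN1A (27.7) and ZMAT3 (17.9) above GADD45A (15.9).

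**Figure D1:**
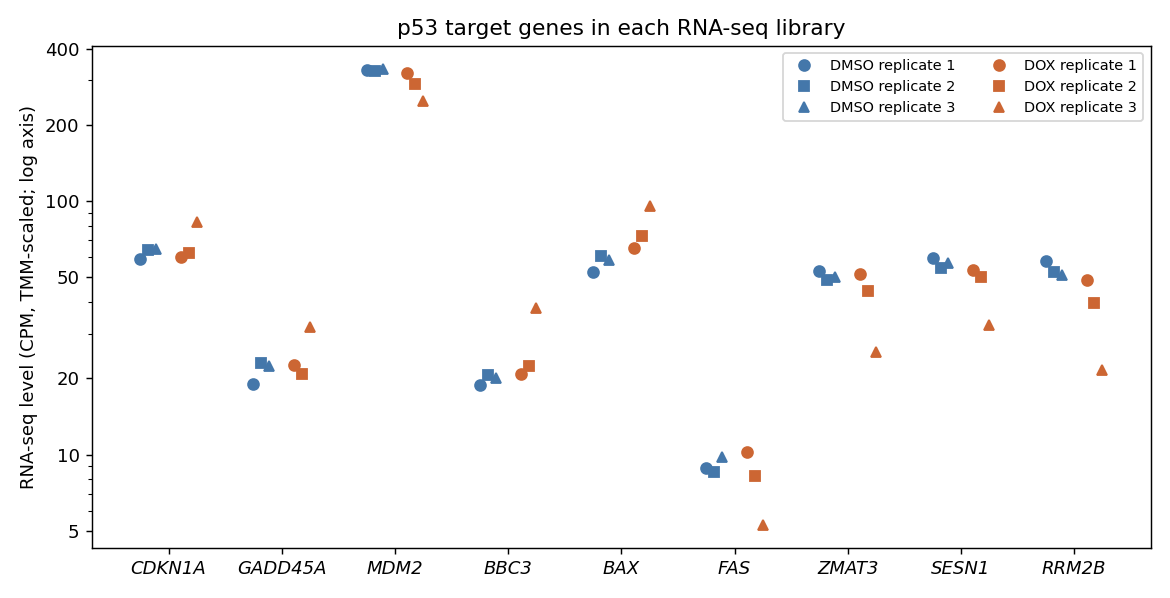
RNA-seq level of each of the 9 p53 targets (TMM-scaled CPM, log axis) in the 3 DMSO libraries (blue) and the 3 doxycycline libraries (orange), with the marker shape giving the replicate number. Doxycycline replicate 3 (orange triangles) lies apart from the other doxycycline libraries for every gene, above them for CDKN1A, GADD45A, BBC3 and BAX and below them for MDM2, FAS, ZMAT3, SESN1 and RRM2B.

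With all 6 libraries, none of the 9 targets was called higher or lower with doxycycline at an adjusted p under 0.05, and the background was the same: 0 of 20552 genes higher (0%) and 0 lower (0%) by the quasi-likelihood test of edgeR, adjusted after Benjamini and Hochberg. EIF4EBP1, the gene of the induced protein, was not called in this fit either (log2 0.75, edgeR adjusted p = 0.326). It was called without doxycycline replicate 3 (log2 0.75, adjusted p = 1.19e-05). Before adjustment, 1969 genes were higher and 848 lower at p under 0.05 with all 6 libraries, and of the targets BAX was higher and none lower. DESeq2's Wald test called 1 gene higher and 2 lower and edgeR's likelihood ratio test 5 and 7, with none of the targets among them. In bulk RNA, a change in the share of cells that express a gene and a change per cell cannot be told apart.

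CDKN1A (ENSG00000124762, chr6:36676460-36687337, + strand) encodes p21, an inhibitor of cyclin-dependent kinases and the target most often used to read p53 activity. Its level was 59.3, 63.9 and 65.0 CPM in DMSO replicates 1, 2 and 3 and 59.96, 62.6 and 82.4 CPM in doxycycline replicates 1, 2 and 3. Doxycycline replicates 1 and 2 lay inside the DMSO range and replicate 3 above it. This gave a log2 fold change of 0.12 (95% interval -0.21 to 0.46; edgeR adjusted p = 0.591). Without doxycycline replicate 3 it was -0.04, with an interval of -0.18 to 0.11 (adjusted p = 0.788), so the sign turned.

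GADD45A (ENSG00000116717, chr1:67685201-67688334, + strand) is a stress-inducible protein that acts in cell-cycle arrest and DNA repair. It was at 18.9, 23.0 and 22.4 CPM with DMSO and at 22.6, 20.9 and 31.9 CPM with doxycycline, in the order of the replicate numbers. As for CDKN1A, replicate 3 alone lay outside the DMSO range. Its log2 fold change was 0.22 (interval -0.20 to 0.65; adjusted p = 0.439) with all libraries and 0.02 (-0.18 to 0.21; adjusted p = 0.933) without doxycycline replicate 3.

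MDM2 (ENSG00000135679, chr12:68808177-68845544, + strand), the ligase that marks p53 for degradation, had the most reads of the 9, from 16218 to 17936 in the DMSO libraries. Its level was 328.4, 326.5 and 333.0 CPM with DMSO and 321.6, 289.6 and 248.5 CPM with doxycycline. Every doxycycline library lay below every DMSO library, replicate 1 by less than the range of the DMSO values (two-sided exact permutation test, p = 0.1, the smallest that 3 libraries against 3 allow). Its log2 fold change was -0.20 (interval -0.47 to 0.07; adjusted p = 0.338), and -0.11 (-0.24 to 0.02; adjusted p = 0.29) without doxycycline replicate 3.

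BBC3 (ENSG00000105327, chr19:47220822-47232766, - strand) encodes PUMA, a BH3-only protein that neutralises the guardians of the mitochondrial membrane. It was at 18.8, 20.7 and 20.1 CPM with DMSO and at 20.9, 22.4 and 37.7 CPM with doxycycline. All doxycycline libraries were above all DMSO libraries, replicate 1 only just (exact permutation test, p = 0.1). The log2 fold change was 0.44 (interval -0.08 to 0.97; adjusted p = 0.326), and it was 0.12 (-0.05 to 0.30; adjusted p = 0.364) without replicate 3.

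BAX (ENSG00000087088, chr19:48954815-48961798, + strand), an effector that permeabilises the outer mitochondrial membrane, was at 52.7, 60.9 and 58.7 CPM with DMSO and at 65.2, 72.7 and 95.5 CPM with doxycycline. Each doxycycline library was above the highest DMSO library (exact permutation test, p = 0.1). The log2 fold change was 0.44 (interval 0.07 to 0.81; adjusted p = 0.326). Leaving out doxycycline replicate 3, it was 0.26 with a standard error of 0.0757 and passed the threshold (adjusted p = 0.0436). The mean of the remaining doxycycline libraries was then 69.0 ± 5.28 CPM (SD, n = 2) against 57.4 ± 4.22 CPM (SD, n = 3) with DMSO.

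FAS (ENSG00000026103, chr10:88953813-89029605, + strand) is a death receptor at the cell surface and had the fewest RNA-seq reads of the 9, from 134 to 485 per library. It was at 8.88, 8.55 and 9.75 CPM with DMSO and at 10.2, 8.27 and 5.28 CPM with doxycycline. Doxycycline replicates 1 and 2 lay above and below the DMSO range and replicate 3 far below it. A log2 fold change of -0.18 resulted (interval -0.70 to 0.34; adjusted p = 0.606), which turned to 0.03 (-0.20 to 0.25; adjusted p = 0.9) without replicate 3.

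ZMAT3 (ENSG00000172667, chr3:178960121-179072215, - strand) encodes an RNA-binding zinc-finger protein. It was at 53.2, 48.9 and 50.001 CPM with DMSO and at 51.6, 44.3 and 25.4 CPM with doxycycline, so that replicate 1 lay within the DMSO range. On the log2 scale the fold change was -0.32 (interval -0.88 to 0.23; adjusted p = 0.402) with all libraries and -0.08 (-0.24 to 0.08; adjusted p = 0.539) without replicate 3.

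SESN1 (ENSG00000080546, chr6:108984309-109094846, - strand) encodes sestrin 1, which restrains the nutrient-sensing kinase mTORC1, the kinase that phosphorylates 4EBP1. It was at 59.8, 54.6 and 57.0 CPM with DMSO and at 53.5, 50.05 and 32.6 CPM with doxycycline, with no overlap (exact permutation test, p = 0.1). The log2 fold change was -0.33 (interval -0.76 to 0.10; adjusted p = 0.333) with all libraries and -0.14 (-0.29 to 0.0049; adjusted p = 0.209) without replicate 3.

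RRM2B (ENSG00000048392, chr8:102204502-102238961, - strand) encodes the p53-inducible small subunit of ribonucleotide reductase, which supplies deoxynucleotides for DNA repair. It was at 57.8, 52.4 and 51.2 CPM with DMSO and at 48.8, 39.6 and 21.6 CPM with doxycycline, below every DMSO library in each (exact permutation test, p = 0.1). The log2 fold change was -0.55 (interval -1.17 to 0.07; adjusted p = 0.326). Leaving out doxycycline replicate 3, it was -0.29 with a standard error of 0.086 and passed the threshold (adjusted p = 0.0489). The remaining doxycycline libraries then had a mean of 44.2 ± 6.53 CPM (SD, n = 2), against 53.8 ± 3.55 CPM (SD, n = 3) with DMSO.

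**Figure D2:**
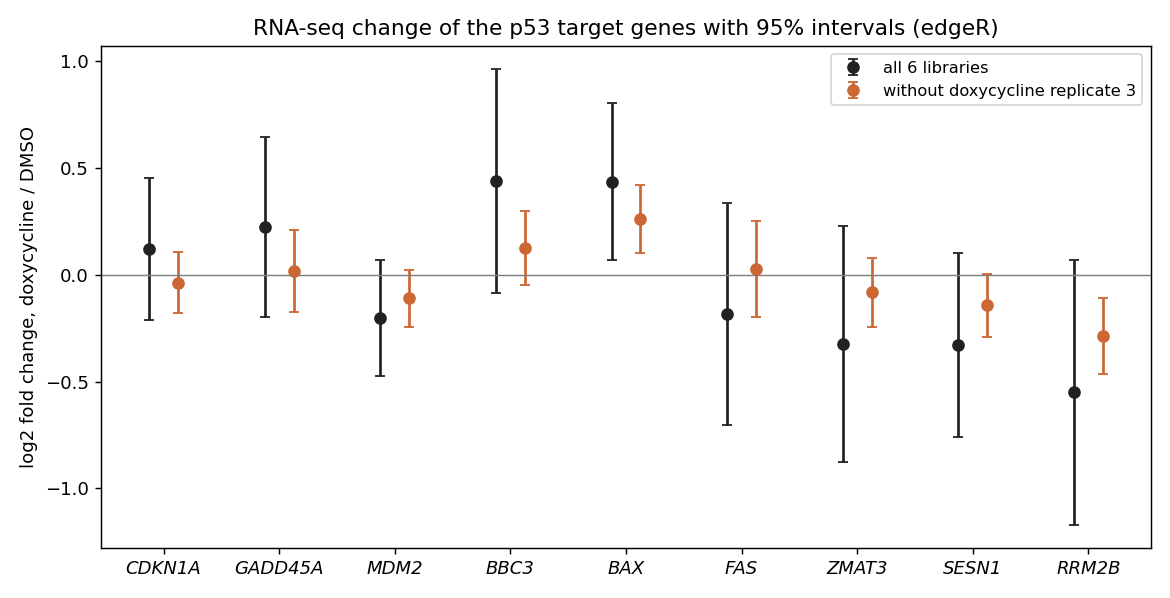
Log2 fold change (doxycycline over DMSO) of the 9 p53 targets with unadjusted 95% intervals from edgeR, with all 6 RNA-seq libraries (black) and without doxycycline replicate 3 (orange). Without that library the intervals narrow and the estimates move towards 0. The interval of BAX excludes 0 in both fits (log2 0.26 without that library), that of RRM2B (-0.29) only without it.

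The signs of the 9 targets were split. With all libraries 4 were on the positive side and 5 on the negative side, and their median log2 fold change was -0.18, against -0.04 over all genes tested. Of the 9, 2 had all doxycycline libraries above all DMSO libraries and 3 had them all below, where the shares over all genes tested were 17.7% and 20.8%. Without doxycycline replicate 3, 1 target was called higher and 1 lower, against 3.4% and 4.03% of the 20459 genes then tested, and the median was -0.04 against -0.01. The BAX call was kept in 6 of 9 other settings tried without that library (adjusted p from 0.0084 to 0.245) and the RRM2B call in 4 of 9 (0.0156 to 0.307), and both were lost without DMSO replicate 1 (log2 0.20 and -0.23) and with the GC offset described next. The BAX call was also lost without DMSO replicate 3 (adjusted p = 0.0697), and the RRM2B call with DESeq2's size factors, library totals or a minimum of 60 reads (adjusted p = 0.0546, 0.0981 and 0.0555).

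The direction of the 9 targets ran with the base composition of their exons. The targets with a positive log2 fold change over all libraries were those rich in G and C, namely CDKN1A (57.5% GC), GADD45A (57.8%), BAX (60.7%) and BBC3 (64.4%), and those with a negative one were RRM2B (37.5%), MDM2 (39.5%), ZMAT3 (39.95%), SESN1 (41.2%) and FAS (41.5%). All genes tested showed the same gradient. The median log2 fold change was -0.37 over the 3212 genes under 40% GC, of which 9.34% were positive, and 0.39 over the 2411 genes at 60% or more, of which 91.5% were positive. The gradient was also present among the doxycycline libraries: in replicate 3 the level relative to the mean of doxycycline replicates 1 and 2 had a median log2 of -0.80 in the lowest GC class and 0.54 in the highest. For the targets that ratio, on the linear scale, ran from 0.488 for RRM2B to 1.74 for BBC3. A weaker gradient remained without that library, with medians of -0.18 and 0.19 in the lowest and highest class.

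**Figure D3:**
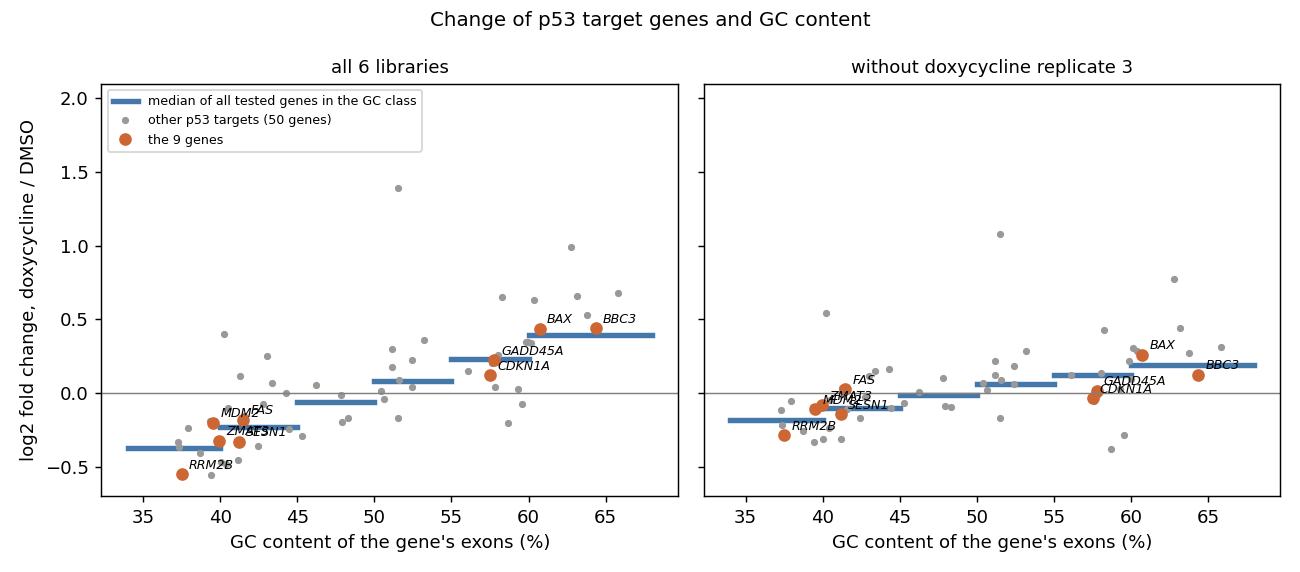
Log2 fold change (doxycycline over DMSO) against the GC content of a gene's exons (%), with all 6 RNA-seq libraries (left) and without doxycycline replicate 3 (right), for the 9 targets (orange, named), 50 other p53 targets (grey) and the median of all genes tested in each GC class (blue lines, the end classes drawn to 34% and 68%). The 9 targets lie near the blue lines, below 0 at low GC and above 0 at high GC in the left plot.

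The median deviation of each library in 25 classes of GC content was entered as an offset in the same edgeR fit. This alternative was chosen after seeing the data. The offset was computed from these same libraries, so it also takes out any change with doxycycline that runs with GC content. Genes that follow the median of their class are moved towards 0 by construction. Under the offset the 9 targets spread over a narrower range. Their log2 fold changes then ran from -0.17 (RRM2B) to 0.17 (MDM2) with all 6 libraries and from -0.17 (CDKN1A) to 0.13 (FAS) without doxycycline replicate 3, and 0 of 9 were called in either fit. Without that library 1.94% of all genes were called higher and 1.91% lower under the offset. BAX was at 0.10 (adjusted p = 0.245) and RRM2B at -0.11 (adjusted p = 0.307) there. CDKN1A was the nearest to the threshold, on the lower side (adjusted p = 0.0579). EIF4EBP1 had a log2 fold change of 0.57 (adjusted p = 0.00035) in the same fit. With the offset and all 6 libraries it was at 0.42 and was not called (adjusted p = 0.297).

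MDM4, the partner of MDM2 in restraining p53, was at 193.8, 193.7 and 192.8 CPM with DMSO and 199.4, 193.3 and 285.0 CPM with doxycycline, so that replicate 3 was far above the others and replicate 1 slightly above the DMSO range. Its log2 fold change was 0.22 (edgeR adjusted p = 0.39) with all libraries and 0.02 (adjusted p = 0.875) without that library. With the GC offset, MDM4 was at 0.56 with all libraries (adjusted p = 0.314) and at 0.13 without doxycycline replicate 3 (adjusted p = 0.112). Of the relatives of p53, TP73 was at 14.5 ± 0.649 and 19.6 ± 4.05 CPM (SD, n = 3), each doxycycline library being above every DMSO library (log2 0.43, adjusted p = 0.326; 0.25 without doxycycline replicate 3 and 0.08 with the GC offset as well), and TP63, with 2 to 7 reads per library, did not pass the filter. Over 16 regulators and relatives of p53, 15 were tested and 0 were called in either direction, with 2 higher and 0 lower at an unadjusted p under 0.05. Among all 20552 genes tested, 1969 were higher and 848 lower at that p. The median log2 fold change was 0.04. Those whose groups did not overlap were TP73, the acetyltransferase gene CREBBP (log2 0.32) and the chaperone gene DAXX (log2 0.22), all 3 above DMSO. The shares over all genes tested were 17.7% above and 20.8% below. DAXX was at 0.07 without doxycycline replicate 3 and with the GC offset. Without doxycycline replicate 3, CREBBP alone was called higher (log2 0.25, edgeR adjusted p = 0.0413), against 3.4% of all genes. With the GC offset as well, CREBBP was at 0.18 (adjusted p = 0.0607).

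A wider list of 50 other p53 targets was read the same way. All 50 were tested and 0 were called with all libraries. At an unadjusted p under 0.05, 10 were higher and 4 lower, where 1969 and 848 of all 20552 genes tested were. Of the 50, 27 lay on the positive and 23 on the negative side, with a median log2 fold change of 0.03. All doxycycline libraries lay above all DMSO libraries for 13 of the 50 genes and below for 11, where the shares over all genes tested were 17.7% and 20.8%. The direction again ran with GC content: 22 of the 26 genes at 50% GC or more were positive and 19 of the 24 below it were negative. SFN and PIDD1 were among the genes without overlap that had the most positive log2 fold changes. SFN had 8 to 12 reads with DMSO and 14 to 17 with doxycycline, a log2 fold change of 0.99 with a standard error of 0.346, so its value rests on few reads. PIDD1, a death-domain adaptor, was at 34.9 ± 2.88 and 56.2 ± 22.3 CPM (SD, n = 3; log2 0.68), and its log2 fold change was 0.31 without doxycycline replicate 3, 0.18 with the GC offset and 0.09 with both. The most negative were those of TP53INP1 (log2 -0.56), PERP (-0.48) and PMAIP1, the gene of the BH3-only protein NOXA (-0.47). Without doxycycline replicate 3 and with the GC offset these were at -0.18, -0.10 and -0.17, and SFN was at 0.59. The adjusted p was 0.326 for each of these 5 genes (edgeR).

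Without doxycycline replicate 3, 6 of the 50 genes of the wider list were called higher and 3 lower, against 3.4% and 4.03% of all genes, and the median log2 fold change was 0.03 against -0.01 over all genes. Those called higher were AEN, FDXR, NOTCH1, PHLDA3, PIDD1 and PLXNB2, and those called lower were DDIT4, PMAIP1 and TP53INP1; the ones not yet introduced are named because the counts are small, after their values were seen. With the GC offset (1.94% of all genes higher and 1.91% lower) 3 were called higher, AEN, NOTCH1 and PHLDA3, all of them among the 6, and 2 lower, DDIT4 and SESN2, of which DDIT4 was among the 3. AEN, an exonuclease of apoptotic cells, was at 134.9, 141.3 and 145.1 CPM with DMSO and 165.8, 176.6 and 197.4 CPM with doxycycline, above every DMSO library in each. Its log2 fold change without replicate 3 was 0.28 (adjusted p = 0.0191), and 0.21 (adjusted p = 0.02) with the offset. PHLDA3, an inhibitor of AKT, was at 15.7, 18.1 and 17.2 CPM with DMSO and 21.8, 24.0 and 34.4 CPM with doxycycline, and had 0.43 (adjusted p = 0.0134) and 0.29 (adjusted p = 0.023) in the same fits. DDIT4 and SESN2, both restraints on mTORC1 that are also induced by stresses other than p53 activation, overlapped between groups, at 182 ± 28.9 and 158 ± 32.9 CPM for DDIT4 and 174 ± 24.7 and 165 ± 39.2 CPM for SESN2 (SD, n = 3), and doxycycline replicate 3 was the highest doxycycline library for both. Without it they were at -0.38 (adjusted p = 0.0296) and -0.29 (adjusted p = 0.0556), and at -0.51 (0.0169) and -0.43 (0.0131) with the offset.

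The genes of the wider list whose profile over the 6 RNA-seq libraries was most like that of CDKN1A were RAP2B, TNFRSF10B and TRAF4. The measure was the root mean square difference of log2 CPM (0.5 added) after centring each gene, and it was 0.0749, 0.097 and 0.0994 for these 3 of the 50 genes. RAP2B, a small GTPase, was at 41.0 ± 1.25 CPM with DMSO and 44.5 ± 4.20 CPM with doxycycline (SD, n = 3), with its highest value in doxycycline replicate 3, as for CDKN1A. TNFRSF10B, the death receptor DR5, was at 123 ± 4.401 and 139 ± 9.08 CPM, and TRAF4 at 57.1 ± 2.80 and 68.3 ± 10.2 CPM (SD, n = 3).

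When p21 accumulates, the DREAM complex can silence a set of cell-cycle genes, and 16 of these were examined. Whether this route works in cells with large T antigen was not tested, so these genes are not a measure of p53 activity here. All 16 were tested and 0 were called with all libraries. At an unadjusted p under 0.05, 1 was higher and 1 lower, where 1969 and 848 of all 20552 genes tested were. Their signs were split 8 to 8, with a median log2 fold change of -0.13, and 8 lay below all DMSO libraries and 2 above, against 20.8% and 17.7% of all genes tested. Among these the mitotic kinase gene CDK1 had the most negative value, with 187.8, 164.5 and 171.0 CPM for DMSO and 151.5, 131.0 and 70.5 CPM for doxycycline (log2 -0.57, edgeR adjusted p = 0.326). CCNA2 (-0.45) and CCNB2 (-0.44), both cyclin genes, came next, while the transcription factor genes MYBL2 (0.33) and E2F1 (0.26) lay above DMSO in each library. In the fit without doxycycline replicate 3, 0 were called higher and 4 lower: CCNA2, CCNB1, CCNB2 and CDK1, with log2 fold changes from -0.31 for CDK1 to -0.22 for CCNB2, where 4.03% of all genes were called lower. With the GC offset as well only CCNB2 of the 16 was called (1.91% of all genes lower), at -0.18 (adjusted p = 0.0389), and CDK1, whose exons have 34.9% GC, was at -0.08 (adjusted p = 0.289). MYBL2 was at 0.02 and E2F1 at -0.04 in that fit.

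**Figure D4:**
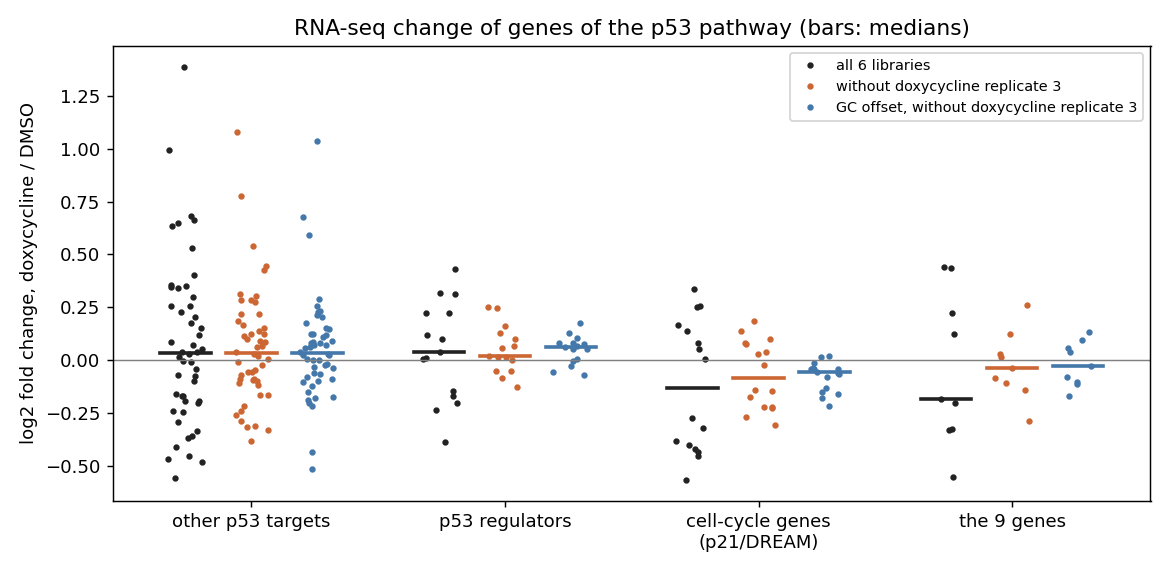
Log2 fold change (doxycycline over DMSO) of each tested gene in 4 lists, namely the 50 other p53 targets, 15 regulators and relatives of p53, 16 cell-cycle genes repressed through p21 and DREAM, and the 9 targets, with all 6 RNA-seq libraries (black), without doxycycline replicate 3 (orange) and without it and with the GC offset (blue); short bars are medians. The medians stay between -0.18 and 0.06, and the spread of the 9 targets narrows from black to blue.

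In Ribo-seq the 9 targets had 30 reads in all over the 6 libraries, of 3638279 reads on genes, against 176783 RNA-seq reads. CDKN1A, MDM2, ZMAT3 and RRM2B had 0 Ribo-seq reads. BBC3 had 4, BAX and GADD45A 1 each, and FAS and SESN1 12 each. For a count of 0 the upper limit is taken as 3 reads, for counting error only. This is 2.99 to 14.3 CPM depending on the depth of the Ribo-seq library. A change in translation was therefore not detectable from these reads for 7 of the 9 targets. Between 233 and 497 genes had at least 10 reads in a Ribo-seq library, against 18258 to 20881 in an RNA-seq library. MDM2 had 86121 RNA-seq reads and still 0 in Ribo-seq. The part of depth in these 0 counts was not tested.

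FAS and SESN1 entered the model of translation efficiency (TE), the interaction of assay and treatment in edgeR over 12 libraries, in which 2 of 1334 genes were called lower (0.15%) and 0 higher (0%). The Ribo-seq reads of FAS were 0, 2 and 3 in the DMSO libraries and 2, 2 and 3 in the doxycycline libraries, no more than 3 in any library, so no fold is given (adjusted p = 0.639). SESN1 had 3, 4 and 4 reads with DMSO and 1, 0 and 0 with doxycycline. Since a count of 0 allows up to 3 reads, or 5.71 and 10.0 CPM in doxycycline replicates 2 and 3, the libraries do not separate one by one, and the reads of each group were summed (11 and 1). Relative to the reads on genes, the doxycycline rate was 0.103 of the DMSO rate, with an exact 95% interval of 0.00239 to 0.707 for counting error only. The change in TE of SESN1 had an unadjusted p of 0.0358 and did not pass after adjustment (edgeR adjusted p = 0.23). SESN1 reached the minimum of 10 Ribo-seq reads through its DMSO reads alone, and a filter met in this way favours a fall. Neither the ratio nor the p-value can therefore serve as evidence of a fall.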

How the data were processed

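RNA-seq and Ribo-seq of 293T cells were used, 3 libraries per treatment and assay, grouped by the sample labels. The deposited counts are raw reads per gene: the authors trimmed the linker and removed ribosomal RNA reads from the Ribo-seq data, mapped reads with STAR to GRCh38 and kept unique alignments on exons (the labels name GRCh37, and part of the methods does too). Whether counting used the strand is not given in the sources used here. Overlapping exons leave CDKN1A (DINOL), MDM2 (CPM), BBC3 (MIR3190, MIR3191), FAS (ACTA2, STAMBPL1) and SESN1 (a long noncoding RNA) uncertain to that extent. The exons of MDM2 also overlap an antisense long noncoding RNA (9.45% of its exon bases) and a processed pseudogene on the same strand (5.285%). Those of FAS also overlap an antisense long noncoding RNA (6.48%). A second deposited table gave gene symbols; its columns of the authors' own comparison (dispersion, p, q, TE per condition and their log2 ratio) were not used. Rows naming no gene took 69.2% to 94.1% of RNA-seq and 97.1% to 99.1% of Ribo-seq counts and were left out. No 2 libraries were identical.

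RNA-seq counts were scaled with TMM factors and tested with edgeR 4.0.16 (limma 3.58.1, R 4.3.3), quasi-likelihood, Benjamini-Hochberg adjustment over all genes tested; single values used exact permutation tests, two-sided. TE genes had at least 10 reads per assay. Tests were tried on simulated counts. Alternatives were DESeq2 (1.42.0) and its size factors, library totals, other filters, the likelihood ratio test, a replicate block and left-out libraries. The GC offset, over the 20396 genes (99.2% of those tested) with a GC value from GENCODE release 44 (99.1% of identifiers matched), and the canonical start were added after seeing the data. Named genes are the 9 targets, EIF4EBP1, MDM4, TP63 and TP73, up to 3 rises and 3 falls per list without overlap between groups, and the 3 profiles nearest to CDKN1A; values of some genes that this rule covers are not reported here. The 9 targets and the lists were chosen with earlier results of these data known.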

Additional observations from a re-analysis of the deposited data

How the results depend on the processing

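Scaling by DESeq2's size factors or library totals, other filters, DESeq2's Wald test, the likelihood ratio test and the replicate block each kept the direction of all 9 targets and called none of them; library totals moved the median of all genes by 0.13 (log2). Over all genes, DESeq2's Wald test called 1 higher and 2 lower and the likelihood ratio test 5 and 7. Libraries with the same replicate number were not alike for every number (correlation of deviations 0.392, -0.361 and 0.0233 for numbers 1, 2 and 3). The deviations were taken from group means that include doxycycline replicate 3, so they cannot settle whether the libraries were paired. The replicate block gave RRM2B a log2 fold change of -0.63 and called 0 of the targets and 0 of all genes.

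With each library left out in turn, 0 to 1 targets were called higher and 0 to 1 lower, 0 to 6 and 0 to 3 of the wider list, 0 to 1 regulators higher, 0 to 4 cell-cycle genes lower, and 0 to 696 and 0 to 825 of all genes; the upper ends are those without doxycycline replicate 3. The log2 fold change of CDKN1A then ranged from -0.036 to 0.218 and that of FAS from -0.398 to 0.0281, both turning sign without that library. With the replicate block and without replicate 3 of both groups, 1 target was called higher and 2 lower (RRM2B, SESN1), 12 and 8 of the wider list, 4 and 1 regulators, 1 and 7 cell-cycle genes, and 2151 and 2629 genes in all; CDKN1A was at -0.0066 and FAS at 0.0821.

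With the GC offset and 6 libraries, CDKN1A (-0.14), MDM2 (0.17), BBC3 (-0.0098), GADD45A (-0.0472) and FAS (0.0536) changed sign, with 0 genes called. Without doxycycline replicate 3 as well, CDKN1A (-0.17), MDM2 (0.0375), BBC3 (-0.0797), GADD45A (-0.11), FAS (0.13) and ZMAT3 (0.059) did, with 3 higher and 2 lower in the wider list, 1 cell-cycle gene lower, and 393 and 388 genes in all. The cause of the changes was not tested. Matches to the p53 consensus went from 6 to 3 targets with at most 1 base off. With a replicate number left out in every group, SESN1 never entered the TE model and FAS only without number 1. Few Ribo-seq reads limit every statement on translation.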
